A study of Mus musculus with 10 samples.

Results

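Oxidative phosphorylation genes encoded in the nucleus were followed by RNA sequencing in the tail bud, the growth zone at the posterior end of the embryo, dissected from mouse embryos at stage E12.5. The members were taken by name alone, as all rows of the count table whose symbol begins with Nduf, Uqcr, Atp5, Cox4, Cox5, Cox6, Cox7 or Cox8, together with Sdha, Sdhb, Sdhc and Sdhd, without symbols that contain -ps. This gave 93 of the 38720 symbols in the table. Of these, 43 belong to complex I (7 core subunits, 29 accessory subunits and 7 assembly factors), 4 to complex II, 8 to complex III, 20 to complex IV and 16 to complex V, and 2 are factors that carry an Atp5 name. Ndufa4 and Ndufa4l2 were counted with complex IV, where their proteins are now placed.

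There were 10 libraries in 3 groups. Lin28a-induced embryos (replicates 2 to 5, n = 4) carried TRE-Lin28a, a doxycycline-responsive Lin28a transgene, the Cre-activated allele RLSL-rtTA and FoxD1-Cre, and were treated with doxycycline. The no-Cre group (replicates 6 to 8, n = 3) carried TRE-Lin28a and RLSL-rtTA and was treated with doxycycline, so it shares everything but the FoxD1-Cre allele. For wild type (replicates 1 to 3, n = 3) the labels name neither a transgene nor doxycycline. The series asks what Lin28 and let-7 do during caudal axis elongation. The Lin28a protein binds RNA and keeps let-7 microRNAs from maturing. FoxD1-Cre turns the transgene on only in cells with a history of Foxd1 promoter activity, whereas the RNA came from the whole dissected tissue. No label ties a library to its own embryo, and the p-values therefore cover only the spread among these libraries. That spread may be technical in part, or wholly so in wild type, where all libraries had the same sex.

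In oxidative phosphorylation, complexes I and II pass electrons from NADH and succinate to ubiquinone, complex III passes them to cytochrome c, and complex IV passes them to oxygen. Complexes I, III and IV pump protons across the inner mitochondrial membrane, and complex V, the ATP synthase, makes ATP as the protons flow back. A few core subunits of complexes I, III, IV and V are encoded by mitochondrial DNA, whereas all the others are encoded in the nucleus and imported. In mouse cells, Lin28a has been reported to bind mRNAs of this pathway, Ndufb3, Ndufb8 and Sdha among them, and to raise their translation, which RNA sequencing does not measure.

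Total counts ran from 21762668 to 39517946 per library. Lin28a itself stood at 605 to 750 CPM (counts relative to TMM-adjusted library size) in Lin28a-induced libraries, at 2.64 to 5.03 CPM in no-Cre libraries and at 4.45 to 6.16 CPM in wild-type libraries. All 10 genes of a list of tail bud markers had counts, and their summed level was 1204.5 to 1573.2, 1244.0 to 1313.5 and 642 to 1278.9 CPM in Lin28a-induced, no-Cre and wild-type libraries, with wild-type replicate 2 at the low end. Correlations of log2 CPM were 0.988 to 0.991 within the Lin28a-induced group and 0.99 to 0.991 within the no-Cre group, against 0.974 to 0.982 within wild type. Lin28a-induced replicate 5 and no-Cre replicate 7 had the Xist and Ddx3y counts of females, whereas the other 8 libraries, all wild-type ones among them, had those of males. The wild-type libraries also held about 4 times the summed level of mitochondrially encoded subunits: 3937.5 to 5950.1 CPM in Lin28a-induced and 4627.7 to 5453.0 CPM in no-Cre libraries, against 16491.1 to 23904.2 CPM in wild-type libraries. The labels give no batch or date, and any batch that coincides with genotype cannot be told apart from it.

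Of the 93 members, 88 passed the filter on low counts. The other 5 were nearly absent: Cox8c had no count in any library, Cox7b2 and Cox8b had 1 count in 1 library each, Cox6a2 had 2 counts in each of 2 libraries, and Atp5l2 had 0 to 4 counts. Cox6a2 and Cox8b encode heart and skeletal muscle isoforms of complex IV, whereas Cox7b2 and Cox8c are testis isoforms. Markers of skeletal muscle summed to 7.19 to 11, 6.07 to 7.89 and 9.22 to 9.59 CPM in Lin28a-induced, no-Cre and wild-type libraries. Atp5l, the gene of ATP synthase subunit g, passed the filter with only 6 to 25 counts, and it shares sequence with Atp5l2, which the annotation lists as a processed pseudogene, so both values are uncertain.

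Summed over all 93 members, transcripts reached 9765.9, 9214.7, 9592.4 and 9250.1 CPM in Lin28a-induced libraries and 10044.7, 9799.9 and 9481.9 CPM in no-Cre libraries, against 11474.1, 11426.9 and 11105.8 CPM in wild-type libraries. The Lin28a-induced and no-Cre ranges overlap, and every wild-type library lies above both. The mean sum of the Lin28a-induced libraries was 0.967 of the no-Cre mean and 0.834 of the wild-type mean, and that of the no-Cre libraries was 0.862 of the wild-type mean. In bulk tissue, fewer cells of a type and less RNA per cell cannot be told apart.

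Per length, members of complex V led. Atp5b, the catalytic beta subunit, stood first at 794 ± 18.6, 788 ± 22.7 and 748 ± 29.5 CPM per kb of its transcript in Lin28a-induced, no-Cre and wild-type libraries (SD, n = 4, 3 and 3). Atp5g3, Atp5a1, Cox4i1 and Atp5e followed as the 2nd to 5th of the 93 members, in this order in all 3 groups. Atp5g3 and Atp5a1 did not differ beyond their spread in Lin28a-induced (449 ± 20.6 and 433 ± 20.2) or wild-type libraries (498 ± 49.1 and 455 ± 16.8), but did in no-Cre libraries (478 ± 16.7 and 431 ± 16.5). The median level per kb was 160, 168 and 230 CPM for complex V and 114, 120 and 146 CPM for complex III in the same groups. Complex I core subunits had medians of 53.2, 52.9 and 70.3 CPM per kb. The assembly factors of complex I, which are not part of the finished enzyme, had the lowest medians of the complexes, at 16.4, 16.5 and 15.9 CPM per kb. These levels use 1 principal transcript per gene, and those of Atp5g1 and Ndufb2 rest on unusually long models of 4715 and 4371 bases.

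**Figure D1:**
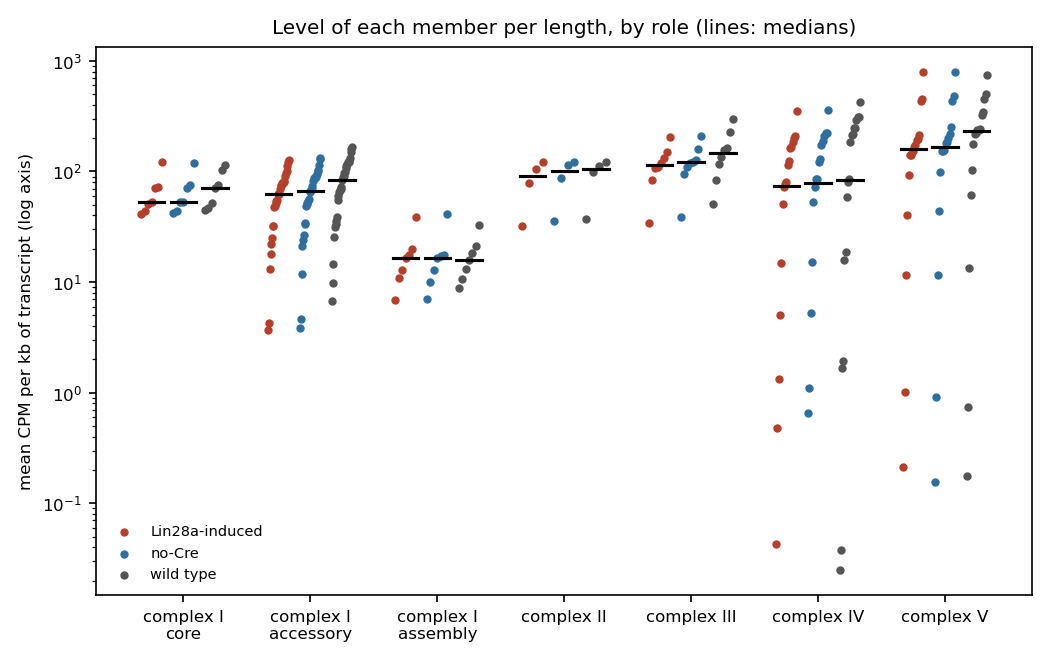
Mean level of each member in CPM per kb of its principal transcript (log axis), by role, for Lin28a-induced (n = 4), no-Cre (n = 3) and wild-type (n = 3) libraries, with a line at each median; a mean of 0 is not drawn. Complex V holds the highest points, Atp5b at 794, 788 and 748 CPM per kb, and complex I assembly factors have medians near 16.

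The comparison of Lin28a-induced with no-Cre libraries asks what changes in tail buds when FoxD1-Cre turns Lin28a on. Here 1 of the 88 tested members was lower and 0 were higher at an adjusted p under 0.05 (quasi-likelihood test of edgeR, Benjamini-Hochberg over all 16340 tested genes), where 2.91% of all tested genes passed. At an unadjusted p under 0.05, 21 of the 88 members passed, beside 2658 of all 16340 tested genes. DESeq2 called 6 of 85 members, all lower, where it called 6.77% of all genes it tested. Fold changes were small throughout: log2 values ran from -0.43 to 0.28, 0 members exceeded a 1.5-fold change, and for 85 of the 88 the 95% interval of the change lay within 1.5-fold in both directions. The 3 others, Cox7a1, Ndufa4l2 and Atp5l, had few counts.

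The member that passed was Ndufb10, an accessory subunit of the membrane arm of complex I (chromosome 17, 24722060 to 24724478, minus strand, GRCm38). It had 61.3, 56, 59.5 and 55.3 CPM in Lin28a-induced libraries, against 70.3, 70.5 and 65.6 CPM in no-Cre libraries. The groups do not overlap, and the log2 fold change was -0.25 ± 0.06 (SE, adjusted p = 0.0441). Wild-type libraries had 63.1, 57 and 65.3 CPM, within or between those ranges, and Ndufb10 passed neither comparison with wild type, though a correction for gene length gave 0.30 in no-Cre over wild type (adjusted p = 0.00277). The call between Lin28a-induced and no-Cre libraries held without wild-type replicate 2 or 3 and was lost without any 1 of the other 8 libraries (adjusted p from 0.0508 to 0.211).

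Below the threshold the direction was mostly the same. The log2 fold change was negative for 71 of the 88 members, with a median of -0.07 against -0.00 over all tested genes. The members share the same libraries, so counts of members are a description and not independent observations. Their summed levels overlap between the 2 groups. All Lin28a-induced libraries lay below all no-Cre libraries for 20 of the 88 members (22.7%) and above them for 3 (3.41%), against 11.4% and 12% of all tested genes. Complex II had a median of -0.13 (4 of 4 negative), complex IV -0.09 (15 of 16) and complex I accessory subunits -0.08 (25 of 29), whereas the complex I core stood at 0.00 (3 of 7).

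Which members pass here depends on the fit. With only the libraries of these 2 groups fitted, 14 members were lower and 2 were higher, where 11.2% of all tested genes passed. In that fit Atp5e, the epsilon subunit of the ATP synthase, had a log2 fold change of -0.25 (adjusted p = 0.00398) and Ndufb10 one of -0.25 (adjusted p = 0.00446). The 2 higher members were Ndufaf4, an assembly factor of complex I, at 0.27 (adjusted p = 0.00614), and Atp5sl at 0.24 (adjusted p = 0.0345). Without wild-type replicate 2 in the fit of all groups, 8 members were lower and 1 was higher, where 8.87% of all tested genes passed. Ndufaf4 had 78.6, 74.2, 70.8 and 66.1 CPM in Lin28a-induced libraries, against 61.2, 58.1 and 60.1 CPM in no-Cre libraries. These do not overlap, but the fit of all 10 libraries gave an adjusted p of 0.103.

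The transcripts of the reported Lin28a targets stood close together in these groups. Ndufb3 had 39.6, 41.4, 39.2 and 38.8 CPM in Lin28a-induced libraries and 42.3, 40.8 and 41.0 CPM in no-Cre libraries, with a log2 difference of -0.06 ± 0.06 (SE, adjusted p = 0.719). Ndufb8 had 65.4, 57.0, 64.4 and 58.6 CPM in Lin28a-induced libraries and 63.1, 61.0 and 58.1 CPM in no-Cre libraries, a log2 difference of 0.01 ± 0.06 (adjusted p = 0.947). Both encode accessory subunits of the complex I membrane arm. For Sdha, the flavoprotein of complex II, the log2 difference was -0.02 ± 0.05 (adjusted p = 0.879).

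Against wild type, most members were lower in both transgenic groups. In Lin28a-induced libraries 64 of the 88 tested members were lower and 3 were higher, where 25.0% of all tested genes were lower and 24.3% higher. In no-Cre libraries 55 were lower and 4 were higher, against 21.4% and 21.0% of all tested genes. The median log2 fold change of the members was -0.35 and -0.30, against -0.02 over all tested genes in both comparisons. These comparisons share the wild-type libraries and are therefore not independent of each other. Without wild-type replicate 2, which stood apart, 66 and 58 members were lower and 3 and 4 were higher. In that fit 45.5% and 38.8% of all tested genes passed in either direction.

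**Figure D2:**
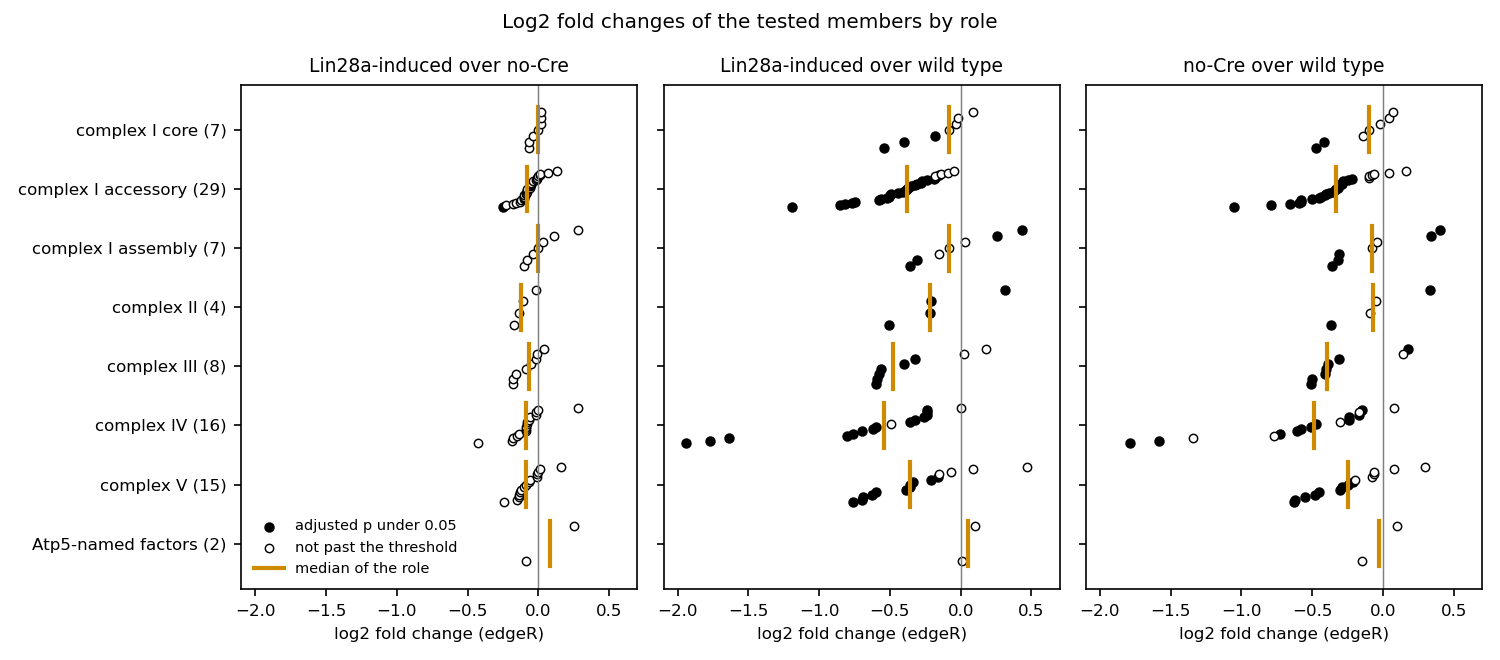
Log2 fold change of each of the 88 tested members, by role, in the comparisons of Lin28a-induced over no-Cre, Lin28a-induced over wild type and no-Cre over wild type; filled points have an adjusted p under 0.05, bars are role medians, and the number of tested members stands beside each role. Points gather near 0 in the first panel and mostly left of 0 in the others, with medians of -0.07, -0.35 and -0.30 over all members.

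Transcript length moved with these differences and is given with them. In the shortest class (principal transcripts under 750 bases, 36 members) the median log2 fold change in Lin28a-induced over wild type was -0.47 for the members and -0.42 for all 904 tested genes of that class. In no-Cre over wild type it was -0.40 for the members and -0.42 for all genes. In the next length class (24 members) the members stood at -0.36 and -0.30 and all genes at -0.21 and -0.19. In the class that ends at 2000 bases (18 members) the medians were -0.22 and -0.15 against -0.07 and -0.07, and above it (only 10 members) -0.13 and -0.12 against 0.04 and 0.04. In the shortest class the members' medians lay close to those of all genes of that length, and in the longer classes they lay below them. The share called lower was larger for the members also in the shortest class, at 77.8% against 36% of all genes in Lin28a-induced over wild type and 75% against 32.7% in no-Cre over wild type. Each library was then corrected for its trend with gene length, taken as total exon length and not as that of the principal transcript. After this, 44 members were lower and 6 higher in Lin28a-induced libraries (median -0.20), and 41 were lower and 7 higher in no-Cre libraries (median -0.17). In either direction these were 50 and 48 of the 88 members, beside 48.6% and 42.3% of all genes in that fit. Uncorrected, 67 and 59 members passed, beside 49.3% and 42.5% of all tested genes. Spearman's rho between principal transcript length and uncorrected log2 fold change was 0.41 and 0.34 over the 88 members. It is a description over genes that share these libraries.

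**Figure D3:**
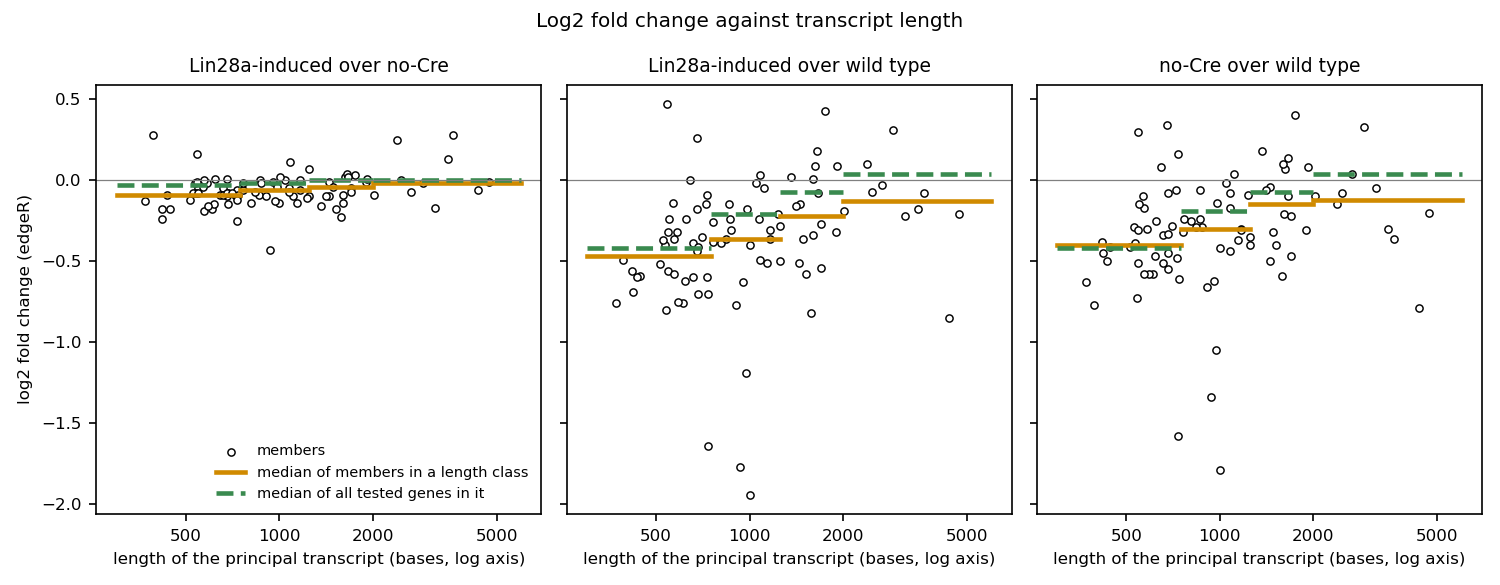
Log2 fold change of each tested member (points) against the length of its principal transcript in bases (log axis) in the 3 comparisons, with medians of the members (solid) and of all tested genes (dashed) in 4 length classes. Against wild type both medians rise with length, the dashed one from -0.42 under 750 bases to 0.04 from 2000 bases.

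Copies of the members in the genome also moved with the groups. A member's exons were split into words of 32 bases and looked up in all other annotated exons. At least 1% of the words were found elsewhere for 60 of the 93 members, and 56 share words with a pseudogene. The 24 pseudogenes in the table that share at least 20% of their own words with a member summed to 7.62 to 8.69 CPM in Lin28a-induced and 7.98 to 9.54 CPM in no-Cre libraries, against 41.3 to 61.9 CPM in wild-type libraries. How reads with several alignments were counted is not given in the sources used here. With only genes under 1% of shared words tested, 22 of 30 members were lower and 1 was higher in Lin28a-induced libraries, and 16 were lower and 2 higher in no-Cre libraries. Of all 7135 genes in that fit, 51% passed in Lin28a-induced and 44.4% in no-Cre libraries against wild type, in either direction.

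Markers of other cell types differed from wild type too. Pericyte markers summed to 218 to 274 CPM in Lin28a-induced and 209 to 221 CPM in no-Cre libraries, against 129 to 171 CPM in wild-type libraries, with Higd1b at 0 in all. Macrophage markers (9 of 10 in the table) summed to 104 to 125 and 88.1 to 106 CPM, against 38.4 to 80.9 CPM, and neuron markers (10 genes) to 30.2 to 33.6 and 27.3 to 34.5 CPM, against 60.9 to 78 CPM. The neuron list went both ways: of 8 tested genes, 3 were lower and 1 was higher in each transgenic group, with median log2 fold changes of -0.11 in Lin28a-induced and 0.05 in no-Cre over wild type. Red blood cell markers ranged widely, at 3751.1 to 6146.1 and 5657.5 to 9562.3 CPM, against 2760.9 to 8097.4 CPM. The part of cell composition, sex, pseudogene reads or a batch in the differences of the members was not tested, beyond the alternative fits given with the counts.

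By complex, complex IV was furthest below wild type. Its summed level was 1292.4, 1218.3, 1246.4 and 1183.4 CPM in Lin28a-induced and 1333.0, 1340.5 and 1280.9 CPM in no-Cre libraries, against 1926.0, 1937.7 and 1804.3 CPM in wild-type libraries. The ratio of means was 0.654 for Lin28a-induced and 0.698 for no-Cre over wild type. For complex I accessory subunits these ratios were 0.76 and 0.794, for complex III 0.83 and 0.86, for complex V 0.895 and 0.918, and for the complex I core 0.904 and 0.915. Complex II stood at 0.988 and 1.04 and the complex I assembly factors at 0.996 and 0.94, and their Lin28a-induced and wild-type libraries overlap. No-Cre libraries lay above wild type for complex II (696 to 724 against 668 to 691 CPM) and below it for the assembly factors (177 to 184 against 186 to 196 CPM). These differences between complexes were not tested against each other. Their order depends on the length correction, which uses total exon length and not the principal transcript. The median log2 fold change of complex IV was -0.55 in Lin28a-induced and -0.49 in no-Cre over wild type. With the correction it was -0.21 and -0.23, and complex V was furthest below at -0.30 and -0.26. That correction left 9 and 7 members of complex IV lower, and 16 complex I accessory subunits in each comparison.

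**Figure D4:**
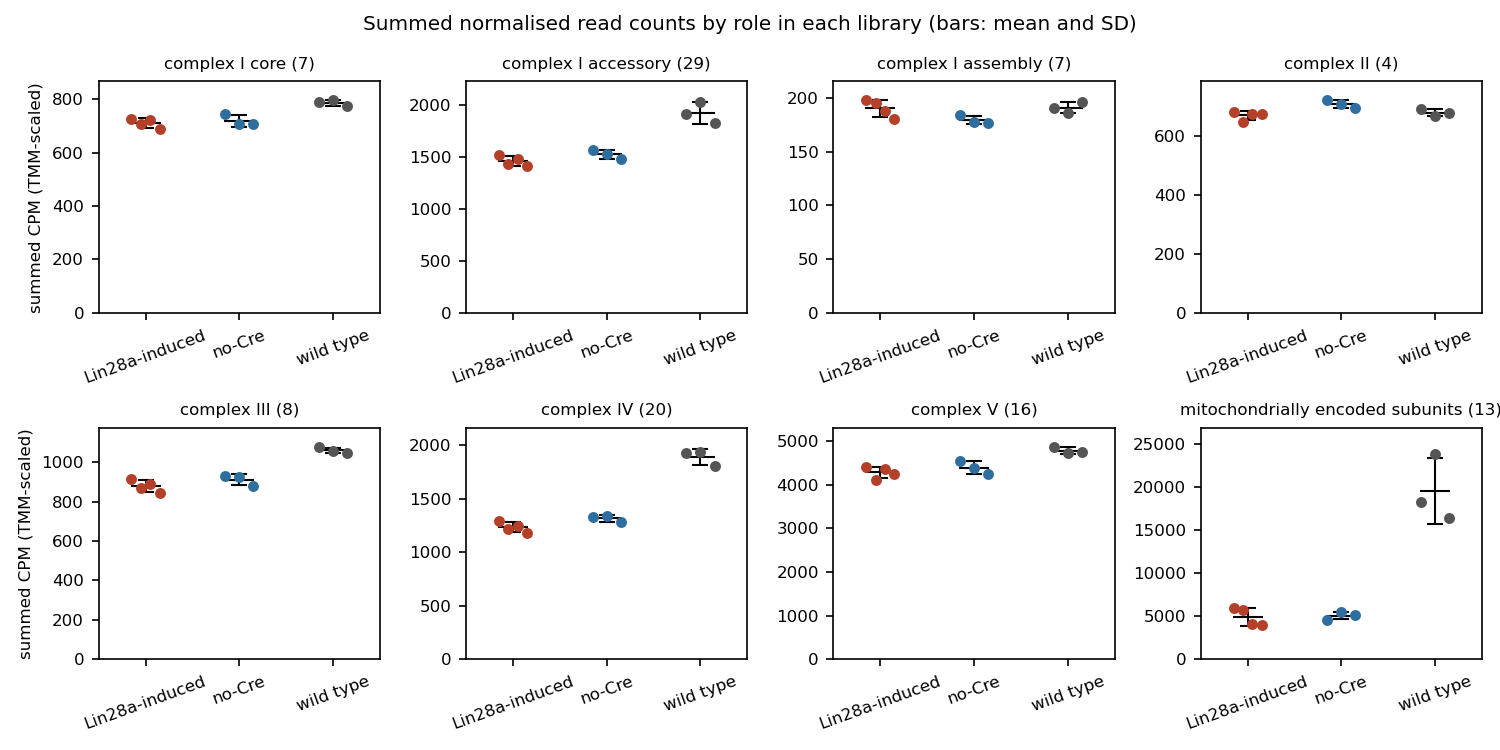
Summed CPM of the members of each role in every Lin28a-induced, no-Cre and wild-type library, with mean and SD, and the same for the 13 mitochondrially encoded subunits; the number of genes stands beside each name. Wild-type points lie above the others for complexes III, IV and V and the complex I core and accessory subunits, and overlap the Lin28a-induced points for complex II and the assembly factors.

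Complex I takes electrons from NADH through its core iron-sulfur and flavin subunits, which accessory subunits surround. Of 29 accessory subunits, 25 were lower in Lin28a-induced and 23 in no-Cre libraries than in wild type, and 0 were higher. Over all tested genes, 25.0% and 21.4% were lower. The furthest accessory subunit was Ndufb4, of the membrane arm (chromosome 16, 37647170 to 37654453, minus strand). It had 4.26, 3.92, 4.45 and 3.96 CPM in Lin28a-induced and 4.56, 4.50 and 4.56 CPM in no-Cre libraries, against 9.66, 9.53 and 9.09 CPM in wild-type libraries. The highest transgenic library lies far below the lowest wild-type one, with log2 fold changes of -1.19 ± 0.11 (SE, adjusted p = 2.66e-06) and -1.05 ± 0.12 (adjusted p = 2.16e-05). With 19.1% of its words found in other genes, 4 of them pseudogenes, Ndufb4 is uncertain.

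Ndufb2 and Ndufb11, also of the membrane arm, had log2 fold changes of -0.85 ± 0.09 and -0.77 ± 0.06 in Lin28a-induced and of -0.79 ± 0.09 and -0.66 ± 0.07 in no-Cre libraries over wild type (highest adjusted p of these = 2.26e-05). Ndufv3, an accessory subunit of the NADH-binding module, had 26.7, 28.5, 28.1 and 29.8 CPM in Lin28a-induced and 34.0, 34.0 and 31.6 CPM in no-Cre libraries, against 54.2, 49.3 and 46.7 CPM in wild-type libraries. Its log2 fold changes over wild type were -0.82 ± 0.07 (adjusted p = 5.51e-07) and -0.59 ± 0.07 (adjusted p = 2.8e-05). Ndufa6, an accessory subunit that binds the acyl carrier protein Ndufab1, had no shared words and stood at -0.75 ± 0.07 and -0.58 ± 0.08 (adjusted p = 3.34e-06 and 7.57e-05). Ndufb3 and Ndufb8 were lower as well, at -0.38 and -0.44 in Lin28a-induced and -0.32 and -0.45 in no-Cre libraries (highest adjusted p = 0.00162). With the length correction Ndufb3 stood at -0.07 and -0.05 (adjusted p = 0.349 and 0.565). Ndufb2 overlaps exons of Braf and of an antisense gene on the other strand, and its counts carry that uncertainty.

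The core of complex I stood nearer to wild type. Ndufv2 and Ndufs8, iron-sulfur subunits, were lower in both transgenic groups, at -0.54 ± 0.07 and -0.40 ± 0.06 in Lin28a-induced (adjusted p = 5.01e-05 and 0.000197) and -0.47 ± 0.08 and -0.42 ± 0.07 in no-Cre libraries (adjusted p = 0.000381 and 0.000349). Ndufs7, which holds the last iron-sulfur cluster before ubiquinone, was lower in Lin28a-induced libraries alone at the threshold (-0.18 ± 0.06, adjusted p = 0.029), against -0.14 ± 0.07 in no-Cre libraries (adjusted p = 0.108). Ndufs1, Ndufs3 and Ndufv1, which binds NADH, passed in neither comparison, with log2 values from -0.10 to 0.04. The call of Ndufs7 was lost without Lin28a-induced replicate 4 or 5 or wild-type replicate 1 or 3 (adjusted p from 0.0555 to 0.138) and with the length correction (-0.08, adjusted p = 0.297).

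Assembly factors of complex I went both ways. Ndufaf7, a methyltransferase needed for complex I assembly, had 30.3, 29.6, 32.7 and 29.9 CPM in Lin28a-induced and 30.0, 30.4 and 29.3 CPM in no-Cre libraries, against 19.0, 21.1 and 28.0 CPM in wild-type libraries. Neither transgenic group overlaps wild type, and the log2 fold changes were 0.43 ± 0.11 (adjusted p = 0.00388) and 0.40 ± 0.11 (adjusted p = 0.011). Ndufaf2, a chaperone related to the accessory subunit Ndufa12, was higher too (0.26 ± 0.09 and 0.34 ± 0.09, adjusted p = 0.0238 and 0.00926), but 65.1% of its words occur in other genes, among them a long noncoding RNA that overlaps it on the other strand. In Lin28a-induced libraries its call was lost without Lin28a-induced replicate 2 or 3 or wild-type replicate 3 (adjusted p from 0.0653 to 0.0993). Ndufaf3 was lower in both groups (-0.36 ± 0.11 and -0.32 ± 0.12, adjusted p = 0.0164 and 0.0438), but the Lin28a-induced call was lost without wild-type replicate 2 (adjusted p = 0.0588). The no-Cre call held only without Lin28a-induced replicate 3, no-Cre replicate 6 or wild-type replicate 1, and was lost without any 1 of the other libraries (adjusted p up to 0.163). Ndufaf4, its binding partner, had 83.0, 64.3 and 82.7 CPM in wild-type libraries and was lower in no-Cre libraries (-0.36 ± 0.09, adjusted p = 0.0063), with -0.08 ± 0.08 in Lin28a-induced libraries (adjusted p = 0.436). GC offsets gave -0.26 in no-Cre libraries (adjusted p = 0.111).

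Within complex II, whose 4 subunits are all nuclear, Sdha departed from its partners. It had 347, 339, 355 and 363 CPM in Lin28a-induced and 365, 347 and 357 CPM in no-Cre libraries, against 285, 273 and 294 CPM in wild-type libraries. Every transgenic library lies above every wild-type one, with log2 fold changes of 0.31 ± 0.05 (SE, adjusted p = 0.000159) and 0.33 ± 0.05 (adjusted p = 0.000211). Sdha shares no 32-base words with another gene and has a principal transcript of 2900 bases.

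Sdhb, the iron-sulfur subunit of complex II, moved the other way. It had 93.2, 86.8, 90.3 and 89.7 CPM in Lin28a-induced and 101, 103 and 93.6 CPM in no-Cre libraries, against 129, 134 and 121 CPM in wild-type libraries (log2 fold change -0.51 ± 0.05, adjusted p = 5.15e-06, and -0.37 ± 0.06, adjusted p = 0.000201). Its groups do not overlap either. The membrane anchors Sdhc and Sdhd were lower in Lin28a-induced libraries (-0.22 ± 0.07 and -0.21 ± 0.06, adjusted p = 0.012 and 0.00935), but in no-Cre libraries they stood at -0.05 ± 0.07 and -0.09 ± 0.06 (adjusted p = 0.591 and 0.247). The Sdhc call was lost without wild-type replicate 1 or 3 (adjusted p = 0.0555 and 0.0514), and with the length correction Sdhd stood at -0.03 (adjusted p = 0.567).

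In complex III, 6 of 8 members were lower in each transgenic group than in wild type. The share of all tested genes that were lower was 25.0% in Lin28a-induced and 21.4% in no-Cre libraries. The small subunits Uqcrq, Uqcr10, Uqcr11 and Uqcrh had log2 fold changes of -0.60 to -0.56 in Lin28a-induced and -0.51 to -0.40 in no-Cre libraries (highest adjusted p = 0.000341), and with the length correction Uqcr11 stood at -0.09 in no-Cre libraries (adjusted p = 0.277). Of the large core proteins, Uqcrc2 was lower in both comparisons (-0.32 ± 0.05 and -0.31 ± 0.06, adjusted p = 0.000211 and 0.000737), whereas Uqcrc1 averaged 218, 212 and 192 CPM in Lin28a-induced, no-Cre and wild-type libraries and passed in neither (0.18 ± 0.10 and 0.14 ± 0.10, adjusted p = 0.135 and 0.296). Uqcrfs1, the Rieske iron-sulfur protein that carries electrons to cytochrome c1, did not follow them. It had 117, 112, 117 and 113 CPM in Lin28a-induced and 128, 132 and 126 CPM in no-Cre libraries, against 115, 109 and 116 CPM in wild-type libraries. It was higher in no-Cre libraries (0.18 ± 0.05, adjusted p = 0.0103) and stood at 0.02 ± 0.05 in Lin28a-induced libraries (adjusted p = 0.767). Cyc1, the gene of cytochrome c1, which the name rule does not take, was higher in Lin28a-induced libraries (0.26 ± 0.06, adjusted p = 0.00383), with 0.17 ± 0.07 in no-Cre libraries (adjusted p = 0.0533).

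The lowest level relative to wild type among all members was that of Cox7b, a small subunit that human cells need to assemble complex IV, on chromosome X (106015700 to 106022450, plus strand, GRCm38). It had 80.9, 78.9, 76.3 and 71.6 CPM in Lin28a-induced and 87.8, 84.4 and 82.3 CPM in no-Cre libraries, against 297, 306 and 280 CPM in wild-type libraries. The highest transgenic library, at 87.8 CPM, lies far below the lowest wild-type library, at 280 CPM. The level was 3.83-fold lower in Lin28a-induced libraries, a log2 fold change of -1.94 ± 0.06 (adjusted p = 1.38e-11). It was 3.47-fold lower in no-Cre libraries, at -1.79 ± 0.06 (adjusted p = 1.19e-10). Corrected for length, the values were -1.76 and -1.64. Per kb, Cox7b ranked 43rd of the 93 members in both transgenic groups and 10th in wild type.

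Genes beside Cox7b did not differ by as much. Cox7b shares 6.53% of its words with other genes, 5 of them pseudogenes. Magt1, its neighbour on chromosome X, was lower in the transgenic groups by much less (-0.54 ± 0.05 in Lin28a-induced, adjusted p = 3.08e-06, and -0.45 ± 0.06 in no-Cre, adjusted p = 4.14e-05). Atp7a, on its other side, stood at 0.18 ± 0.09 in Lin28a-induced (adjusted p = 0.121) and was higher in no-Cre libraries (0.31 ± 0.10, adjusted p = 0.0222). Both neighbours were chosen by position, not by rule. Among the 3 members on chromosome X, Ndufa1 and Ndufb11 were lower in both groups as well, at -0.56 and -0.77 in Lin28a-induced and -0.38 and -0.66 in no-Cre libraries. With the length correction Ndufa1 stood at -0.12 and 0.04 (adjusted p = 0.238 and 0.715), so both of its calls were lost and the direction in no-Cre libraries turned. The 2 female libraries had 71.6 CPM (Lin28a-induced) and 84.4 CPM (no-Cre) of Cox7b, beside 76.3 to 80.9 and 82.3 to 87.8 CPM in the male ones of their groups.

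**Figure D5:**
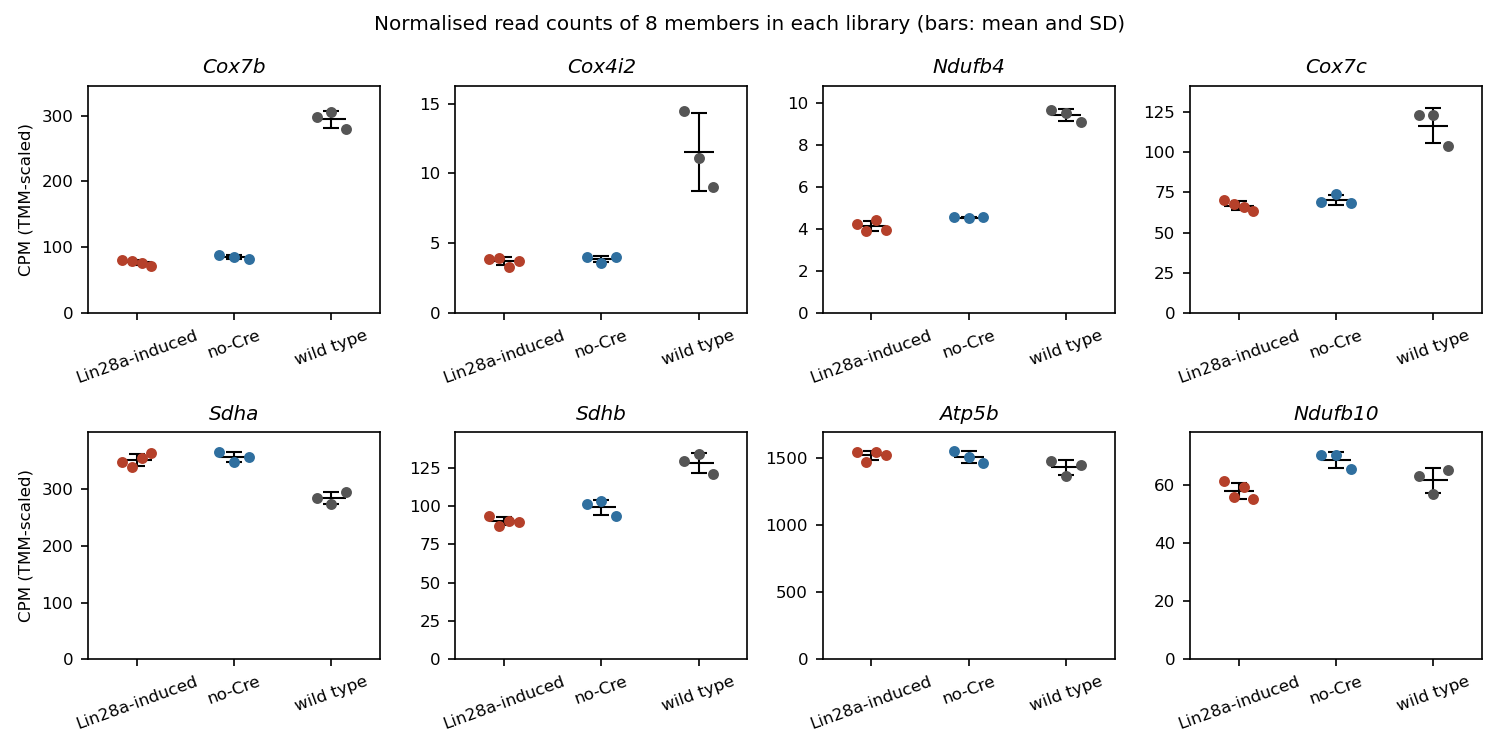
CPM of 8 members in every Lin28a-induced, no-Cre and wild-type library (points), with mean and SD (bars) on axes from 0. Cox7b, Cox4i2, Ndufb4, Cox7c and Sdhb are lower in both transgenic groups than in wild type, Sdha is higher, Atp5b overlaps, and Ndufb10 is lower in Lin28a-induced (55.3 to 61.3 CPM) than in no-Cre libraries (65.6 to 70.5 CPM).

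The promoter windows of 4 members are shown because these members mark the extremes of the comparison: Cox7b and Ndufb4 as the lowest members of complexes IV and I, Sdha as a higher one, and Atp5k as the lowest of complex V. Each runs from 250 bases before to 50 after the RefSeq start (GRCm38.p6), 5′ to 3′ on the gene's strand, with capitals at matches to the motifs searched. The windows lie at chrX:106015450-106015749 (plus strand) for Cox7b, chr16:37654319-37654618 (minus) for Ndufb4, chr13:74350191-74350490 (minus) for Sdha and chr5:108434350-108434649 (minus) for Atp5k.
Cox7b: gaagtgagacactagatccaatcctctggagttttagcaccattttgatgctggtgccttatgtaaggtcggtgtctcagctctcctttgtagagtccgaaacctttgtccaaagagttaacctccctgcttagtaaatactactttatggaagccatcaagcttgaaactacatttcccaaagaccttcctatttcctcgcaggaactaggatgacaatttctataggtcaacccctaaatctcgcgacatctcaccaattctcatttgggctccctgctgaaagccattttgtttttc
Ndufb4: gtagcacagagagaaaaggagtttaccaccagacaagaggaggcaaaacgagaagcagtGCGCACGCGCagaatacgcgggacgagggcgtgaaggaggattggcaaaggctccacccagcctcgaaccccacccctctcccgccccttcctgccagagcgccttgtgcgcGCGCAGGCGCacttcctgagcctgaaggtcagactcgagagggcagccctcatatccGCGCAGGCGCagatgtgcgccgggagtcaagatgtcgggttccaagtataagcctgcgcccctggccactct
Sdha: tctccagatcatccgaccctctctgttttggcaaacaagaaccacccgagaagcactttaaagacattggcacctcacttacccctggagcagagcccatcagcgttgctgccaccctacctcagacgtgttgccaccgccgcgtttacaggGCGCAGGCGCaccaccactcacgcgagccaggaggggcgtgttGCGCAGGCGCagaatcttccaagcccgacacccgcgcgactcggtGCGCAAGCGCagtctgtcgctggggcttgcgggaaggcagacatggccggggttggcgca
Atp5k: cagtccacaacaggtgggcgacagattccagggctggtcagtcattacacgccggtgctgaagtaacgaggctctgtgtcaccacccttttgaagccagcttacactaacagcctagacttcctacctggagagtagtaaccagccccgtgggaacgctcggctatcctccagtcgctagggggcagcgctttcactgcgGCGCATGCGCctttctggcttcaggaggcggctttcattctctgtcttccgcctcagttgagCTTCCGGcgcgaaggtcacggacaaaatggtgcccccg

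The motifs were those of factors known to act at promoters of respiratory chain genes, searched on both strands in the 300-base windows. NRF1 was searched as GCGCA followed directly by TGCGC, and in a looser form as GCGCA, any 1 base and GCGC, which holds the strict form. The ETS motif (bound by GABP) was CCGGAAG, and the YY1 motif was AAGATGGC. Of the 93 members, 73 had a window. The strict NRF1 motif was found in 7 of them (9.59%) and in 1.07% of 27025 symbols with a window, the looser one in 19 (26%) against 5.19%, the ETS motif in 17 (23.3%) against 9.93%, and the YY1 motif in 9 (12.3%) against 3.19%.

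In the 4 windows, the looser NRF1 motif begins at bases 60, 172 and 229 of Ndufb4 and at bases 153, 196 and 241 of Sdha, counted from the first base printed. Atp5k holds the strict NRF1 motif at base 201 and the ETS motif, on the other strand, at base 263, and the Cox7b window holds none of these letters. A match is a description and not a shown site. Of the 39 members with any of these motifs, 30 were lower in Lin28a-induced and 28 in no-Cre libraries than in wild type. Of the 34 with a window and none of them, 23 and 18 were lower. Among all tested genes, 25.0% and 21.4% were lower. Ndufb4, among the lowest members, and Sdha, a higher one, hold the looser NRF1 motif the same number of times. Whether a motif goes with the direction of a member was not tested.

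Other members of complex IV were lower by smaller amounts. All told, 14 of 16 tested members were lower in Lin28a-induced and 11 in no-Cre libraries than in wild type, and 0 were higher. Over all tested genes, 25.0% and 21.4% were lower. Cox7c, a small subunit, had 70.1, 67.7, 65.7 and 63.5 CPM in Lin28a-induced and 69.0, 74.1 and 68.3 CPM in no-Cre libraries, against 123, 123 and 104 CPM in wild-type libraries (-0.80 ± 0.06, adjusted p = 5.00e-07, and -0.73 ± 0.07, adjusted p = 3.62e-06). Its 24.4% of words shared with 6 pseudogenes make this uncertain. Ndufa4, with 1.86% shared words, had log2 fold changes of -0.76 ± 0.05 (adjusted p = 5.91e-08) and -0.58 ± 0.05 (adjusted p = 2.06e-06). Cox6c, another small subunit, stood at -0.70 ± 0.07 (adjusted p = 2.67e-06) and -0.61 ± 0.07 (adjusted p = 2.45e-05), with 11.7% of its words shared. Cox5a, which with Cox4 forms an early assembly module, stood at -0.00 ± 0.06 and 0.08 ± 0.06 (adjusted p = 0.971 and 0.288).

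Complex IV has subunits with isoforms of restricted tissues. Cox4i2, known from lung and induced by low oxygen, had 3.83, 3.92, 3.29 and 3.74 CPM in Lin28a-induced and 3.99, 3.60 and 3.98 CPM in no-Cre libraries, against 14.5, 11.1 and 9 CPM in wild-type libraries. Neither transgenic group overlaps wild type, and the log2 fold changes were -1.64 ± 0.16 (adjusted p = 2.25e-06) and -1.58 ± 0.17 (adjusted p = 1.01e-05). It shares no words with another gene. Cox4i1, its widely used counterpart, was lower by less, at -0.26 ± 0.06 (adjusted p = 0.00156) and -0.24 ± 0.06 (adjusted p = 0.00588), and with the length correction it stood at -0.14 in no-Cre libraries (adjusted p = 0.0516).

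Per length, Cox4i2 made up 1.25% to 1.53% of Cox4i1 plus Cox4i2 in Lin28a-induced and 1.32% to 1.55% in no-Cre libraries, against 2.80% to 4.30% in wild-type libraries. Cox4i2 is also a pericyte gene in mouse tissues, and pericyte markers were at higher sums in the transgenic libraries (209 to 274 CPM) than in wild type (129 to 171 CPM). Of 5 tested pericyte markers, 3 were higher in Lin28a-induced and 2 in no-Cre libraries, and 0 were lower. Of all tested genes, 24.3% and 21.0% were higher. The markers' log2 fold changes ran from -0.02 to 3.23 and from -0.35 to 2.96. The part of pericytes in the level of Cox4i2 was not tested. Ndufa4l2, the paralog of Ndufa4 that low oxygen induces, was near its detection limit: 0.561, 0.145, 0.314 and 0.788 CPM in Lin28a-induced and 0.626, 0.536 and 0.686 CPM in no-Cre libraries, against 2.5, 1.46 and 0.689 CPM in wild-type libraries. Its log2 fold changes were -1.77 ± 0.49 (adjusted p = 0.00864) and -1.34 ± 0.52 (adjusted p = 0.0507), and the Lin28a-induced and wild-type libraries overlap. Without wild-type replicate 1 the Lin28a-induced value was -1.24 (adjusted p = 0.0677).

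The other isoform pairs kept near the widely used form. Cox6b2, known as a testis isoform, made up 6.79% to 7.12% of its pair per length in Lin28a-induced, 5.91% to 6.93% in no-Cre and 4.58% to 6.40% in wild-type libraries. Its level was lower in Lin28a-induced libraries (-0.32 ± 0.12, adjusted p = 0.0372), with -0.30 ± 0.13 in no-Cre libraries (adjusted p = 0.0689), and the call held only without Lin28a-induced replicate 2, no-Cre replicate 6 or 8 or wild-type replicate 2, and was lost without any 1 of the other libraries (adjusted p up to 0.153). The muscle isoform Cox7a1 made up 0.424% to 1.23% of its pair over all 10 libraries, at 0.275 to 1.10 CPM, and passed in no comparison. The widely used Cox6a1, Cox6b1, Cox7a2 and Cox8a were lower in both groups, from -0.62 to -0.24 in Lin28a-induced and from -0.51 to -0.15 in no-Cre libraries (highest adjusted p = 0.0331). In no-Cre libraries, Cox6a1 lost its call without no-Cre replicate 8 (adjusted p = 0.104), and Cox8a without any 1 no-Cre library or wild-type replicate 1 (0.0592 to 0.13). For Cox8a the direction turned with the length correction, which gave 0.13 (adjusted p = 0.0828) in Lin28a-induced and 0.18 (adjusted p = 0.0338) in no-Cre libraries, and for Cox6a1 it gave -0.03 (adjusted p = 0.734) and 0.12 (adjusted p = 0.141).

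In complex V, 11 of 15 tested members were lower in Lin28a-induced and 9 in no-Cre libraries than in wild type, and 0 were higher. The shares of all tested genes that were lower were 25.0% and 21.4%. Atp5k and Atp5j2, which encode the small membrane subunits e and f, were among the lowest of complex V. Atp5k had 54.1, 52.4, 53.1 and 49.4 CPM in Lin28a-induced and 56.7, 59.9 and 55.0 CPM in no-Cre libraries, against 91.6, 90.0 and 83.0 CPM in wild-type libraries. Its groups against wild type do not overlap, with log2 fold changes of -0.76 ± 0.05 (adjusted p = 2.00e-07) and -0.63 ± 0.06 (adjusted p = 3.23e-06). Atp5j2 had -0.63 ± 0.05 (adjusted p = 5.64e-07) and -0.62 ± 0.06 (adjusted p = 1.98e-06). Atp5h, subunit d of the peripheral stalk, had -0.70 ± 0.06 (adjusted p = 1.32e-06) and -0.55 ± 0.07 (adjusted p = 3.15e-05), but 16 pseudogenes share words with it. Atp5j and Atp5f1, other genes of that stalk, stood at -0.39 and -0.34 in Lin28a-induced and -0.25 and -0.21 in no-Cre libraries (highest adjusted p = 0.00796), with -0.05 for Atp5f1 in no-Cre libraries under GC offsets (adjusted p = 0.563).

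The catalytic head of complex V stood apart from these small subunits. Atp5b had 1543.6, 1470.4, 1547.6 and 1525.6 CPM in Lin28a-induced and 1553.5, 1508.7 and 1466.7 CPM in no-Cre libraries, against 1477.6, 1369.3 and 1451.9 CPM in wild-type libraries. The ranges overlap, with log2 differences of 0.09 ± 0.05 (adjusted p = 0.126) and 0.08 ± 0.05 (adjusted p = 0.224). Atp5a1, the alpha subunit, stood at -0.07 ± 0.05 and -0.08 ± 0.05 (adjusted p = 0.255 and 0.276). Atp5c1, the gamma subunit of the central stalk, was lower in both groups, at -0.36 and -0.30 (adjusted p = 0.000337 and 0.00272).

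Atp5g1, Atp5g2 and Atp5g3 encode the same mature c subunit of the membrane ring with different import sequences. Per length, Atp5g3 made up 89.1% to 90.2% of their sum in Lin28a-induced, 89.4% to 89.7% in no-Cre and 84.8% to 88.4% in wild-type libraries. These shares divide Atp5g1 by an unusually long model of 4715 bases, against 731 for Atp5g2 and 723 for Atp5g3. With a shorter Atp5g1 model the share of Atp5g3 would be smaller. The level of Atp5g3 passed in neither comparison (-0.15 ± 0.06 and -0.06 ± 0.07, adjusted p = 0.0694 and 0.515). Atp5g2 was lower in both, at -0.60 ± 0.07 (adjusted p = 1.86e-05) and -0.48 ± 0.08 (adjusted p = 0.000288), but 40.1% of its words occur in other genes, 5 of them pseudogenes. Atp5g1 was lower in Lin28a-induced libraries (-0.21 ± 0.08, adjusted p = 0.0323), with -0.20 ± 0.08 in no-Cre libraries (adjusted p = 0.064). That call was lost without Lin28a-induced replicate 3 or 5, no-Cre replicate 7 or wild-type replicate 1 or 3 (adjusted p up to 0.131).

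Other genes of the pathway were counted from lists set by function. Of 6 tested subunits that the name rule misses, 5 were lower and 1 was higher in Lin28a-induced libraries than in wild type, and 4 were lower and 0 higher in no-Cre libraries. Usmg5, a small subunit of the ATP synthase, was the lowest of them (-0.90 ± 0.06, adjusted p = 1.74e-07, and -0.85 ± 0.07, adjusted p = 9.18e-07). Atpif1, whose protein inhibits ATP hydrolysis by the ATP synthase, and Cycs, which encodes cytochrome c, were lower at -0.38 and -0.17 in Lin28a-induced and -0.34 and -0.19 in no-Cre libraries (highest adjusted p = 0.0349). Of 34 assembly factors outside the name rule, 11 were lower (32.4%) and 8 higher (23.5%) in Lin28a-induced libraries. In no-Cre libraries 11 were lower (32.4%) and 7 higher (20.6%). Of all tested genes, 25.0% were lower and 24.3% higher in Lin28a-induced, and 21.4% lower and 21.0% higher in no-Cre libraries, so these shares are not far from those of all genes. Pet100 and Cox17, assembly factors of complex IV, were lower (-1.15 ± 0.09 and -0.92 ± 0.12 in Lin28a-induced, -0.95 ± 0.10 and -1.16 ± 0.13 in no-Cre libraries, highest adjusted p = 2.50e-05). Coa6, another, stood at -0.63 and -0.49 (adjusted p = 6.23e-05 and 0.00108). Tmem70, an assembly factor of complex V, was higher (0.40 ± 0.06 and 0.38 ± 0.06, adjusted p = 9.72e-05 and 0.00031).

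Mitochondrially encoded subunits were lower than any nuclear group. All 7 that passed the filter, of 13 listed, were lower in both transgenic groups, with medians of -2.03 and -1.94. For mt-Co1, a catalytic subunit of complex IV, levels were 1314.5 ± 264 CPM in Lin28a-induced and 1386.3 ± 140 CPM in no-Cre libraries, against 5434.9 ± 891 CPM in wild-type libraries (SD, n = 4, 3 and 3). The complex I genes mt-Nd1 and mt-Nd2 had log2 fold changes of -2.22 and -2.09 in Lin28a-induced and -2.25 and -2.05 in no-Cre libraries (highest adjusted p = 6.32e-05). Leaving these genes and globin genes out before scaling gave the same counts for the nuclear members, with 64 lower and 3 higher in Lin28a-induced and 55 lower and 4 higher in no-Cre libraries.

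Of 75 tested mitochondrial ribosomal protein genes, which serve translation of the mitochondrially encoded subunits, 33 were lower and 3 higher in Lin28a-induced, and 30 were lower and 2 higher in no-Cre libraries than in wild type. Their medians were -0.12 and -0.14, and Mrpl14, Mrpl30 and Mrpl33 were among the lowest, from -0.66 to -0.63 in Lin28a-induced and from -0.65 to -0.57 in no-Cre libraries (highest adjusted p = 4.55e-05). Their shares lower were 44% and 40%, against 25.0% and 21.4% of all tested genes, of which 24.3% and 21.0% were higher. Of the 17 genes of the TCA cycle and pyruvate dehydrogenase, 7 were lower (41.2%) and 4 higher (23.5%) in Lin28a-induced libraries. In no-Cre libraries 4 were lower (23.5%) and 3 higher (17.6%), near the shares of all genes. The medians of this list were -0.06 and -0.03. Suclg1 and Suclg2, subunits of succinyl-CoA ligase, were lower (-0.29 and -0.25 in Lin28a-induced, -0.16 and -0.17 in no-Cre libraries), whereas Dlat, Pdhx and Ogdh, of the pyruvate and oxoglutarate dehydrogenases, were higher (0.29, 0.17 and 0.32, and 0.24, 0.33 and 0.32, highest adjusted p of these 5 genes = 0.0464). Between Lin28a-induced and no-Cre libraries, 1 gene of these lists passed: Mrpl13 was lower, at 75.5 ± 0.895 CPM against 87.2 ± 1.61 CPM (SD, n = 4 and 3, log2 fold change -0.21 ± 0.04, adjusted p = 0.0217), a call lost without any 1 no-Cre library or Lin28a-induced replicate 4 or 5 (adjusted p up to 0.123).

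Among regulators of mitochondrial gene expression, more were higher than lower. Of all tested genes, 24.3% were higher and 25.0% lower in Lin28a-induced, and 21.0% higher and 21.4% lower in no-Cre libraries than in wild type. Of the 14 regulators, 7 were higher and 2 lower in Lin28a-induced, and 8 higher and 1 lower in no-Cre libraries. The coactivator gene Ppargc1b was the lowest, with 1.85, 2.03, 1.63 and 1.73 CPM in Lin28a-induced and 1.90, 2.86 and 1.99 CPM in no-Cre libraries, against 5.21, 5.56 and 5.88 CPM in wild-type libraries (-1.61 ± 0.18, adjusted p = 9.20e-06, and -1.30 ± 0.19, adjusted p = 0.00015). Pprc1, of the same family, was higher (0.43 ± 0.05, adjusted p = 1.39e-05, and 0.27 ± 0.05, adjusted p = 0.00123), as was Polg, the mitochondrial DNA polymerase gene (0.45 ± 0.07 and 0.34 ± 0.08, adjusted p = 0.000237 and 0.00398). Ppargc1a was lower in Lin28a-induced than in no-Cre libraries, with 11.2, 14.2, 12.6 and 12.9 CPM against 15.8, 17.5 and 20 CPM (-0.48 ± 0.12, adjusted p = 0.0482), and wild-type libraries had 11.6, 14.7 and 10.9 CPM. That call was lost without any 1 Lin28a-induced or no-Cre library or wild-type replicate 1 (adjusted p from 0.0531 to 0.252).

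Cox4i2 and Ndufa4l2 respond to low oxygen, and other genes of that response were counted beside them. Of all tested genes, 25.0% were lower and 24.3% higher in Lin28a-induced, and 21.4% lower and 21.0% higher in no-Cre libraries than in wild type. Of 14 genes on the low-oxygen list, 8 were lower and 0 higher in Lin28a-induced, and 9 lower and 2 higher in no-Cre libraries. Ndrg1 (-1.60 ± 0.09 and -1.42 ± 0.10), the glucose transporter gene Slc2a1 (-0.64 ± 0.05 and -0.62 ± 0.06), Vegfa (-0.66 ± 0.08 and -0.58 ± 0.09) and Pdk1, whose kinase inhibits pyruvate dehydrogenase (-0.80 ± 0.08 and -0.50 ± 0.09), were among them (highest adjusted p = 0.000514). In Lin28a-induced against no-Cre libraries, Egln3, an oxygen-sensing hydroxylase gene, was lower (22, 20.6, 24.5 and 23.0 CPM against 30.5, 28.0 and 29.8 CPM, -0.39 ± 0.08, adjusted p = 0.0203), a call lost without any 1 no-Cre library or Lin28a-induced replicate 2, 3 or 5 (adjusted p up to 0.11). No other gene of that list passed there. Against wild type, Egln3 was higher in no-Cre libraries, with log2 fold changes of 0.22 to 0.34 over the alternative fits. It did not pass in Lin28a-induced libraries over wild type. The no-Cre call was lost without no-Cre replicate 6 or 8 or wild-type replicate 2 or 3 (adjusted p from 0.0533 to 0.0797).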

How the data were processed

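The authors deposited whole-number read counts by gene symbol, with no normalization applied. Per the labels' protocols, total RNA libraries were made with the NEB Ultra Directional kit and read as single 75-base reads on an Illumina NextSeq instrument. Per the submitters' processing notes, STAR 2.3.1z4, featureCounts, DESeq2 and mm10 were used. Gene annotation release, strand option and treatment of multiply aligned reads: not given in the sources used here.

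All 10 libraries entered 1 fit with a coefficient per group: filterByExpr, TMM factors and the robust quasi-likelihood test of edgeR 4.0.16 (R 4.3.3), with Benjamini-Hochberg adjustment over 16340 genes and a threshold of 0.05. CPM use TMM-scaled library sizes. The SE of a log2 fold change was its size divided by the square root of the F statistic. The 3 comparisons were tested without a block, because there was no sign that replicate numbers pair the libraries. Alternatives were DESeq2 1.42.0, limma-voom (limma 3.58.1), DESeq2 size factors, other filters, the compared groups only, a sex covariate, GC and length offsets (lowess span 0.2, each library's trend with GC content or log exon length removed), leaving out mitochondrially encoded and globin genes, genes under 1% of shared 32-base words, a replicate block, and leaving out each library. Levels per kb use GENCODE M21 (GRCm38), to which all 93 members were matched, 2 of them through an older symbol. Promoter windows are from RefSeq. The fit was tested on simulated counts.

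Members and lists were chosen with earlier results of these data known. Named are all genes of complex II, complex IV isoforms, the c subunit genes, Ndufb3 and Ndufb8, plus up to 3 members past the threshold with the smallest p per role and comparison and up to 3 per other list. Ndufaf4, Atp5sl and Atp5e in the fit of 2 groups, the members that passed in neither comparison with wild type, Ndufab1, Cyc1, Atp5c1, Atp5f1, Atp5j, Uqcrc2, Cox6c, Magt1 and Atp7a were named after their values were seen. 1 member is not reported here by name.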

Additional observations from a re-analysis of the deposited data

How the results depend on the processing

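Between Lin28a-induced and no-Cre libraries, 1 member passed the threshold, and this count moved with the setting. It was 2 with no filter on low counts (1.63% of all genes called), 5 with a filter of 1 CPM in 3 libraries (3.83%), 0 with a sex covariate (1.85%), 2 with GC offsets (3.4%), 6 with DESeq2 (6.77%) and 16 with only the 2 groups fitted (11.2%), against 2.91% of all genes in the reported fit. It was 0 to 9 when 1 library was left out (9 without wild-type replicate 2, with 8.87% of all genes). With length offsets the 1 call was in complex V and not Ndufb10 (-0.22, adjusted p = 0.0695). The cause was not tested. Against wild type, the members called numbered 60 to 69 in Lin28a-induced libraries and 52 to 62 in no-Cre libraries when 1 library was left out, and the median in no-Cre libraries ran from -0.33 to -0.26. Length offsets moved the medians to -0.20 in Lin28a-induced and -0.17 in no-Cre libraries and turned the direction of 5 calls: Cox8a in both (0.13 and 0.18, adjusted p = 0.0828 and 0.0338), Ndufa8 in Lin28a-induced libraries (0.13, adjusted p = 0.143), and Cox6a1 (0.12, adjusted p = 0.141) and Ndufa1 (0.04, adjusted p = 0.715) in no-Cre libraries. Lin28a-induced and wild-type libraries share the numbers 2 and 3. Their deviations correlated at -0.0297 and -0.0741, which gave no sign that the numbers pair samples. So few shared numbers cannot exclude a pairing. With a replicate block over the libraries of these 2 groups 39 members were called, all lower, where 24% of all genes were called. Only the numbers 2 and 3 occur in both groups, so in that fit the group difference rests on the libraries with those numbers. Members with few counts (Cox7a1, Ndufa4l2, Atp5l) allow no firm statement at this depth.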
